A study of Mus musculus with 6 samples.

Results

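The chaperone and heat shock genes are 86 genes of the mouse, measured here on 6 Affymetrix arrays of bone marrow cells. They were chosen by symbol alone: every gene with at least 1 probe set of its own whose symbol belongs to the Hsp70, Hsp90 and Hsp110, small heat shock, mitochondrial chaperonin, TRiC, J-protein (Dnaja, Dnajb, Dnajc) or Bag families. They make up 86 of the 18193 genes measured, and 205 probe sets read them. By family there were 13 Hsp70 genes, 3 of the Hsp90 and Hsp110 kind, 8 small heat shock genes, 2 of the mitochondrial chaperonin, 10 TRiC genes, 4 Dnaja, 13 Dnajb, 27 Dnajc and 6 Bag genes. A symbol does not prove a chaperone function: some J-proteins and Cct-like genes in the set have other roles. Hsp90ab1, the constitutive cytosolic Hsp90, was not analysed here because no probe set was annotated to it alone.

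Chaperones bind unfolded or partly folded proteins and help them reach or keep their shape. Hsp70 proteins bind short exposed stretches in a cycle of ATP hydrolysis, J-proteins bring them clients and start that cycle, and Bag proteins and Hsp110 release the nucleotide so that the cycle can begin again. Hsp90 acts later on kinases and receptors, and the chaperonins enclose a client in a chamber: TRiC in the cytosol, where actin and tubulin are its best known clients, and Hspd1 with its lid Hspe1 in mitochondria. Cells make many of these proteins at all times and raise a subset, led by Hspa1a and Hspa1b, when heat or damaged proteins activate the transcription factor HSF1. Folding load in the endoplasmic reticulum raises another subset, led by Hspa5 (BiP).

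The study compared 3 groups of C57BL/6J marrow cells, 2 arrays each. In the MN1 group, marrow of mice given 150 mg/kg of 5-fluorouracil for 4 days was kept for 48 hours with 10 ng/mL hIL6, 6 ng/mL mIL3, 20 ng/mL mSCF and 15% FBS, infected with the retroviral vector pSF91-MN1-IRES-GFP and given to syngeneic recipients after lethal irradiation. Marrow cells positive for GFP were sorted at 4 weeks from transplantation. The MN1VP16 group was made the same way with MN1 joined to VP16, a viral transactivation domain, in the same vector. The Gr1Mac group was marrow sorted for Gr1 and CD11b, that is, maturing myeloid cells without either vector, and the labels do not say from which mice. So MN1 and MN1VP16 differed from Gr1Mac in vector, culture, transplantation and sort at once, and each sorted population may hold cells of several lineages. Nothing in the labels ties the 2 arrays of a group to different animals. The p-values therefore describe the spread among these arrays, which may be technical in MN1 and in MN1VP16. The Gr1Mac arrays differed in Xist (10.44 and 5.83) and the Y-linked gene Kdm5d (3.11 and 7.37), so they did not come from the same animal.

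Values are log2 expression units made by the authors with RMA, so differences are on the log2 scale. Levels are compared only within a probe set. Itgam, which encodes CD11b, read 7.67 and 6.95 on the MN1 arrays, 9.44 and 8.88 on the MN1VP16 arrays, and 10.95 and 10.92 on the Gr1Mac arrays, the group sorted for that protein. The mean of 10 stem and progenitor markers was 10.75 and 10.88 on the MN1 arrays, 9.97 and 9.53 on the MN1VP16 arrays, and 7.08 and 6.91 on the Gr1Mac arrays. The Mn1 probe set read at most 4.92 on any array and so does not check the labels. Xist was high on both MN1 arrays and on Gr1Mac array 1. The Y-linked gene Kdm5d was high on both MN1VP16 arrays and on Gr1Mac array 2. This pattern goes with the sex of the cells, so a difference between MN1 and MN1VP16 cannot be told apart from one of sex. The mean of 18 bright control features was 12.26 and 11.96 on the MN1 arrays, 12.21 and 10.36 on the MN1VP16 arrays, and 10.78 and 10.80 on the Gr1Mac arrays.

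Of the 86 genes, 12 read at or under 5.84 log2 units on all 6 arrays, between 3.30 and 5.53. That level, the highest Xist reading on arrays where Y-linked genes were high, serves as a guide to background, and was picked with the readings in view. The 12 were Cct6b, Cct8l1, Dnajb3, Dnajb7, Dnajb13, Dnajc5b, Dnajc5g, Hspa1l, Hspa12b, Hspb3, Hspb7 and Hspb9, several of them known chiefly from testis or muscle. In 70 genes at least 1 group mean lay above the guide.

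In MN1 cells, all 8 canonical TRiC subunits, Hspd1 and Hspe1, mitochondrial Hspa9, and cytosolic Hsp90aa1 and Hsph1 were higher than in Gr1Mac cells, as were Bag2 and 10 Dnajc genes. By limma with Benjamini-Hochberg adjustment over 18193 genes, 38 of the 86 genes were called either way, against 29.3% of all genes. Higher in MN1 were 35 of 86, or 40.7%, against 17.3% of all genes. Lower were 3 of 86, or 3.49%, against 12.0% of all genes: Dnajc14, Dnajc5 and Hspa12a. The median log2 difference over the 86 genes was 0.54, against -0.06 over all genes.

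In MN1VP16 cells, TRiC subunits, Hspd1, Hspe1, Hspa9, Hsp90aa1 and Bag2 were higher than in Gr1Mac cells, and so were Hsp90b1 of the endoplasmic reticulum and Dnajc12. Called either way were 14 of 86, against 5.77% of all genes. Compared with Gr1Mac, 13 of 86 were higher in MN1VP16, or 15.1% against 3.66% of all genes, and 1 was lower, or 1.16% against 2.11%. The median log2 difference was 0.36 over the 86 genes and -0.00 over all genes. The 1 lower was Dnajc14. This comparison and that of MN1 share the Gr1Mac arrays, so each gene's values in both are given side by side.

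Set directly against MN1, MN1VP16 had 8 of the 86 genes lower, or 9.30% against 2.70% of all genes: Bag2, Dnajc6, Dnajb2, Cct3, Hspd1, Cct6a, Cct8 and Cct4. Either way, 3.85% of all genes were called. By limma 0 were higher at an adjusted p under 0.05, against 1.15% of all genes, and 4 were higher at an unadjusted p under 0.05. The median log2 difference was -0.21 over the 86 genes and 0.03 over all genes. This comparison shares its arrays with the 2 before it.

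**Figure D1:**
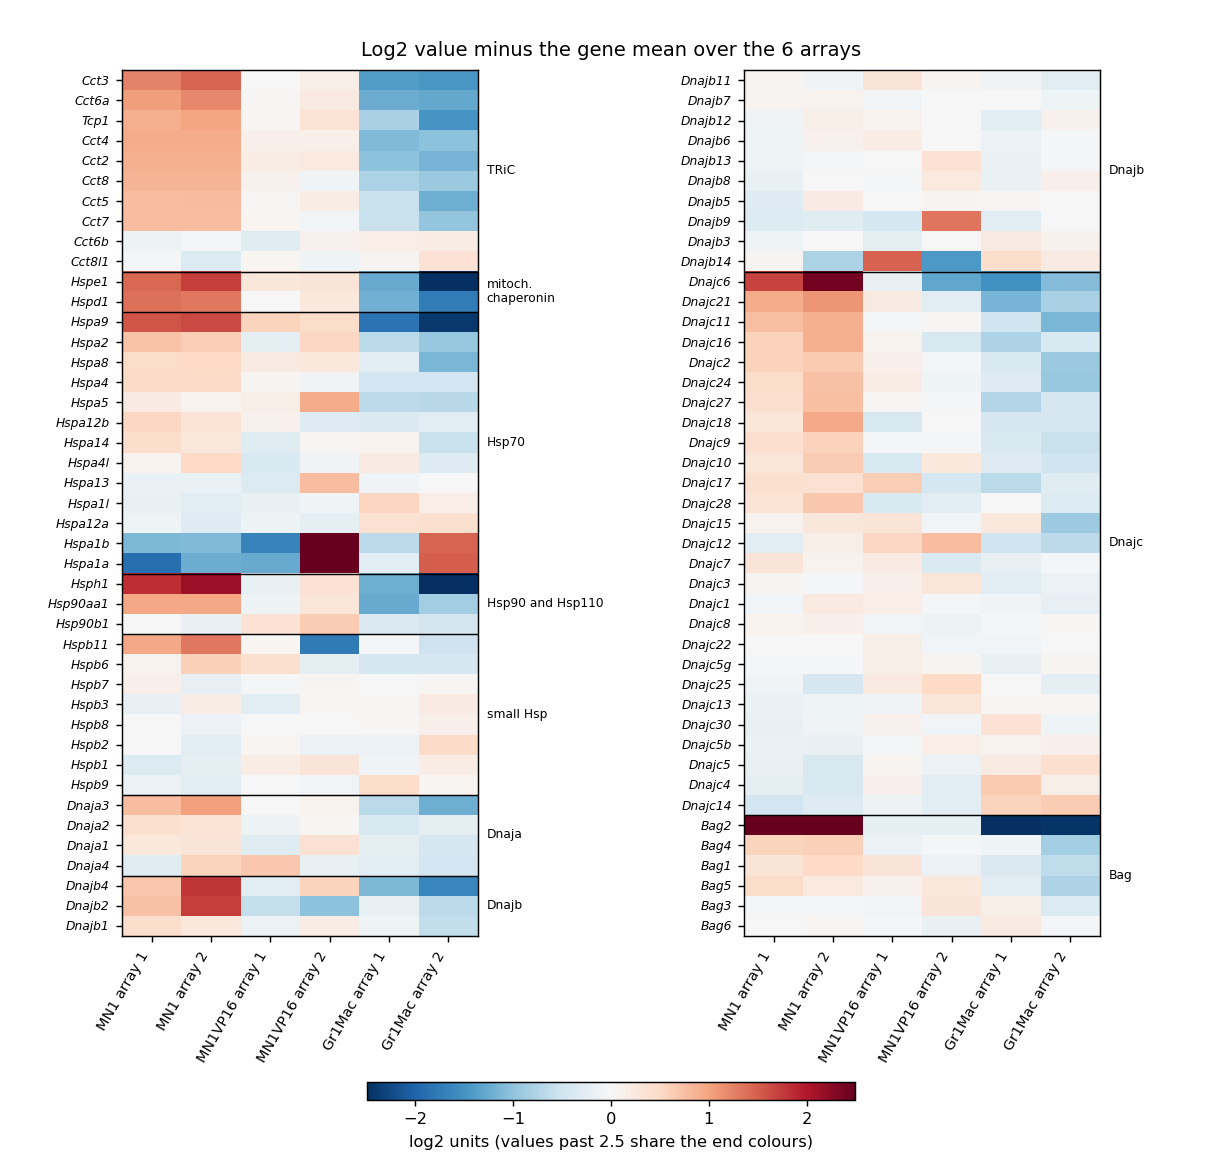
Log2 expression of the chaperone and heat shock genes on each of the 6 arrays, grouped by family, as each gene's difference from its own mean over the arrays (red above, blue below; values past 2.5 units share the end colours). MN1 arrays stand left of MN1VP16 and Gr1Mac arrays. The 8 canonical TRiC subunits and both mitochondrial chaperonin genes are highest in MN1 and lowest in Gr1Mac, which Cct6b and Cct8l1 are not, and Hspa1a and Hspa1b stand out on MN1VP16 array 2.

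TRiC is built of rings of 8 different subunits, each from its own gene. All 8 followed 1 order: both MN1 arrays highest, both MN1VP16 arrays between, both Gr1Mac arrays lowest. That order, without overlap between groups, was found in 14.1% of all genes. Tcp1, the alpha subunit, read 13.25 and 13.34 on the MN1 arrays, 12.40 and 12.69 on the MN1VP16 arrays, and 11.53 and 10.87 on the Gr1Mac arrays. Cct2, the beta subunit, read 12.87 and 12.87 on the MN1 arrays, 12.16 and 12.23 on the MN1VP16 arrays, and 10.95 and 10.81 on the Gr1Mac arrays. Cct3, the gamma subunit, read 12.64 and 12.86 on the MN1 arrays, 11.42 and 11.56 on the MN1VP16 arrays, and 10.01 and 9.95 on the Gr1Mac arrays. In these 3 subunits the groups did not overlap, and the Cct3 arrays of a group lay within 0.22 of each other. Cct4, the delta subunit, read 12.71 and 12.72 on the MN1 arrays, 11.92 and 11.92 on the MN1VP16 arrays, and 10.69 and 10.76 on the Gr1Mac arrays. Cct5, the epsilon subunit, read 12.82 and 12.84 on the MN1 arrays, 12.07 and 12.22 on the MN1VP16 arrays, and 11.48 and 10.81 on the Gr1Mac arrays. Cct6a, the zeta subunit, read 12.93 and 13.07 on the MN1 arrays, 11.91 and 12.11 on the MN1VP16 arrays, and 10.64 and 10.60 on the Gr1Mac arrays. The gap between the Gr1Mac arrays was wide in Cct5 and narrow in Cct4 and Cct6a. Cct7, the eta subunit, read 12.97 and 12.96 on the MN1 arrays, 12.25 and 12.13 on the MN1VP16 arrays, and 11.63 and 11.21 on the Gr1Mac arrays. Cct8, the theta subunit, read 12.02 and 12.03 on the MN1 arrays, 11.27 and 11.09 on the MN1VP16 arrays, and 10.38 and 10.24 on the Gr1Mac arrays. Again no group overlapped another.

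The log2 differences of the 8 subunits between MN1 and Gr1Mac ran from 1.55 ± 0.19 (SE) for Cct7 to 2.77 ± 0.16 for Cct3, which is 2.92-fold and 6.82-fold. All 8 rose, with adjusted p by limma from 0.000980 for Cct3 to 0.00485 for Cct5, and kept their calls when any 1 array was left out. Between MN1VP16 and Gr1Mac, 6 subunits rose, from 1.82-fold for Cct8 (adjusted p = 0.0376 by limma) to 2.85-fold for Cct3 (adjusted p = 0.0140 by limma). Cct5 differed by 1.01 ± 0.24 (adjusted p = 0.0701 by limma) and Cct7 by 0.77 ± 0.19 (adjusted p = 0.0742 by limma), which did not pass. Between MN1VP16 and MN1, 4 subunits fell: Cct3 by 1.26 ± 0.16 log2 units, Cct6a by 0.99 ± 0.16, Cct8 by 0.85 ± 0.16 and Cct4 by 0.79 ± 0.14, with adjusted p by limma between 0.0255 and 0.0482. The other 4 differed by -0.67 for Cct2, -0.69 for Cct5, -0.75 for Tcp1 and -0.78 for Cct7, with adjusted p by limma between 0.0691 and 0.171. Over all genes, 17.3% rose in MN1 and 3.66% in MN1VP16, both against Gr1Mac, and 2.70% fell in MN1VP16 against MN1. Whether the 4 subunits that fell and the 4 that missed the threshold differ from each other was not tested.

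In the comparisons of MN1VP16, each of these calls was lost without at least 1 array, and some whichever array was left out. Over all genes, too, fewer were called there without an MN1 or MN1VP16 array. In MN1VP16 against MN1, the calls of Cct3, Cct4, Cct6a and Cct8 were lost without MN1 array 2, with adjusted p by limma of 0.193, 0.284, 0.258 and 0.285 in that order. Each was also lost without MN1 array 1 or either MN1VP16 array, and those of Cct4, Cct6a and Cct8 also without either Gr1Mac array. In MN1VP16 against Gr1Mac, Cct2, Cct3, Cct4 and Cct6a lost their calls without Gr1Mac array 2 (adjusted p by limma between 0.0614 and 0.0645) and without MN1VP16 array 2 (between 0.0505 and 0.0633), and Cct4 also without MN1VP16 array 1 (0.0551). Cct8 lost its call there whichever array was left out (adjusted p by limma between 0.0507 and 0.125), and Tcp1 without any array but Gr1Mac array 1 (between 0.0806 and 0.140). The sign of each held throughout.

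Of the 6 other probe sets of Cct3, 3 were called higher in MN1 than in Gr1Mac by limma over all probe sets, at 2.80, 3.13 and 2.28 (adjusted p = 0.000932, 0.00207 and 0.0159). The other 3 were not called in any comparison, and 2 of them read at most 5.37. Without probe sets whose names mark possible cross-hybridisation, Cct3 rests on a probe set that reads at most 5.37, and its MN1 minus Gr1Mac difference is -0.04. The related genes Cct6b and Cct8l1 read at most 4.55 on any array and were not called.

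**Figure D2:**
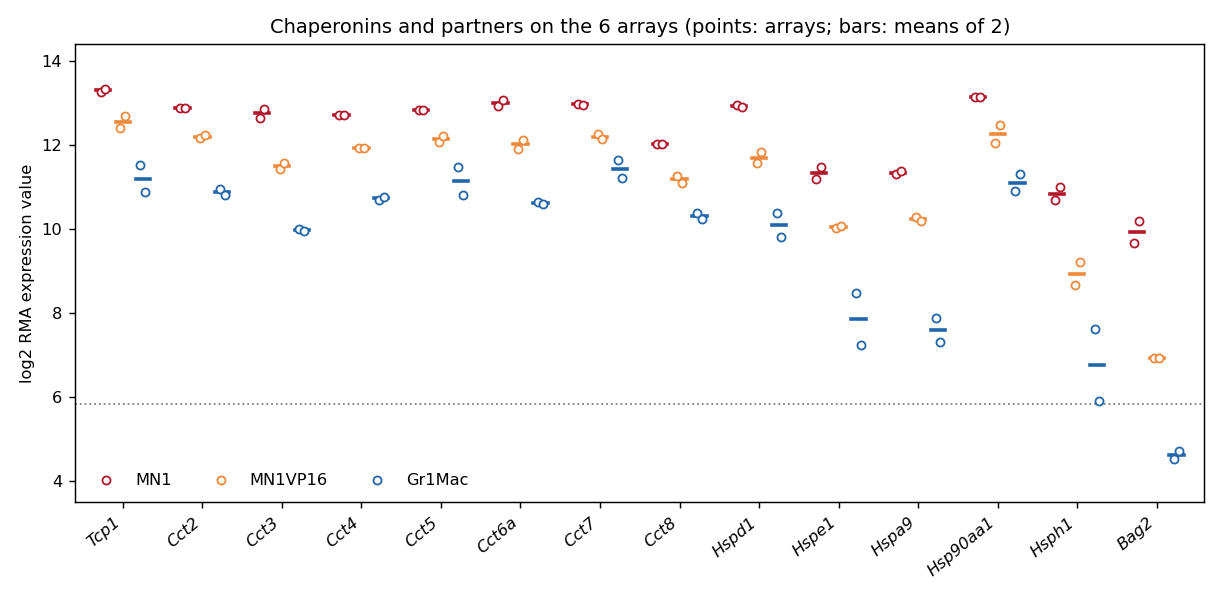
Log2 expression of the 8 canonical TRiC subunits, Hspd1, Hspe1, Hspa9, Hsp90aa1, Hsph1 and Bag2 on each array, with MN1 left of MN1VP16 and Gr1Mac, a point for each array, a bar at the group mean and a dotted line at the guide of 5.84. In each gene shown, both MN1 points lie above both MN1VP16 points, which lie above both Gr1Mac points. That order was found in 14.1% of all genes.

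Hspd1 and Hspe1, the barrel and the lid of the mitochondrial chaperonin, had the same order. Hspd1 read 12.96 and 12.90 on the MN1 arrays, 11.56 and 11.83 on the MN1VP16 arrays, and 10.37 and 9.82 on the Gr1Mac arrays. Hspe1 read 11.18 and 11.48 on the MN1 arrays, 10.03 and 10.07 on the MN1VP16 arrays, and 8.48 and 7.25 on the Gr1Mac arrays. The groups did not overlap in either gene, and the Gr1Mac arrays of Hspe1 lay far apart. In MN1 against Gr1Mac, Hspd1 rose by 2.83 ± 0.23 log2 units (7.13-fold, adjusted p = 0.00136 by limma) and Hspe1 by 3.47 ± 0.39 (11.0-fold, adjusted p = 0.00259 by limma). In MN1VP16 against Gr1Mac, Hspd1 rose 3.03-fold (adjusted p = 0.0244 by limma) and Hspe1 4.55-fold (adjusted p = 0.0363 by limma). The other probe set of Hspe1 gave smaller log2 differences. They were 1.79 in MN1 against Gr1Mac (adjusted p = 0.00363 by limma over all probe sets) and 0.69 in MN1VP16 against Gr1Mac (adjusted p = 0.149, not called). In MN1VP16 against MN1, Hspd1 fell by 1.23 ± 0.23 log2 units (adjusted p = 0.0481 by limma), and Hspe1 differed by -1.28 ± 0.39 (adjusted p = 0.128 by limma). Both calls in MN1VP16 against Gr1Mac were lost without any array but Gr1Mac array 1 (adjusted p by limma up to 0.0794 for Hspd1 and 0.110 for Hspe1). The Hspd1 call in MN1VP16 against MN1 was lost without either MN1 or either MN1VP16 array, with an adjusted p by limma of 0.265 without MN1 array 2. The MN1 calls against Gr1Mac held without any 1 array.

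Both genes lie head to head on chromosome 1, on opposite strands. Of the annotated starts of Hspd1, 1 lies 216 bases before the start of Hspe1 and another 95 bases after it, and the stretch printed here lies before Hspe1 and in a window of Hspd1. It is shown because it holds the binding sequence of HSF1, which alternates GAA with its reverse complement TTC, 2 bases apart. Its units run TTC, GAA, TTC and GAA, so the stretch contains the 3-unit form and is longer. The 250 bases before the start of Hspe1 come from RefSeq (GRCm38.p6, chr1:55087898-55088147, plus strand), with the repeats in capitals.
Hspe1: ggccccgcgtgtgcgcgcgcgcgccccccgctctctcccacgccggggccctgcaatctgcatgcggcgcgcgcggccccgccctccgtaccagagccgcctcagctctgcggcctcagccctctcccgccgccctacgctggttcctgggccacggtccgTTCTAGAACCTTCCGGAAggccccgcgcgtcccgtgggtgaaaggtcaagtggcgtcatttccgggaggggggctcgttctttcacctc

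Of the 86 genes, 71 had promoter windows in the RefSeq table, each from 250 bases before a start to 50 after it. The 2-unit heat shock element, GAA and TTC in either order with 2 bases of any kind between them, was present in a window of 21 of the 71 genes, or 29.6%, and of 15.0% of 14452 measured genes. The 3-unit form, which adds a further alternating unit at the same spacing and so contains the 2-unit form, was present in 4 of 71, or 5.63%, and in 0.609% of all: Dnajb6, Hspd1, Hspe1 and Hsph1. Both strands were searched, and genes with several windows were counted once. Over the 53 genes with 1 window, the 2-unit share was 22.6% against 12.9% of such genes. There the 3-unit share was 1.89% against 0.416%. The stretch printed above lies in a window of both Hspe1 and Hspd1, so it counts for both. The E-box CACGTG was present in 6 of 71 genes, or 8.45%, against 10.2% of all genes. A match is a description of these letters and not a site bound in these cells.

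Among the Hsp70 genes, the mitochondrial one differed most. Hspa9 (mortalin), which draws proteins into the mitochondrial matrix and folds them there, read 11.30 and 11.37 on the MN1 arrays, 10.28 and 10.19 on the MN1VP16 arrays, and 7.88 and 7.31 on the Gr1Mac arrays. The groups did not overlap. Hspa9 rose 13.4-fold in MN1 against Gr1Mac (95% interval 9.20 to 19.4, adjusted p = 0.000980 by limma) and 6.23-fold in MN1VP16 against Gr1Mac (4.29 to 9.06, adjusted p = 0.0113 by limma). It was the 1 gene of the set whose MN1VP16 call against Gr1Mac held without any 1 array. In MN1VP16 against MN1 it differed by -1.10 ± 0.22 log2 units, with an adjusted p of 0.0544 by limma. Its dim probe sets, which read at most 6.18, gave differences near 0.

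Hspa8 (Hsc70), the abundant cytosolic Hsp70 of unstressed cells, read 13.46 and 13.49 on the MN1 arrays, 13.22 and 13.26 on the MN1VP16 arrays, and 12.71 and 11.86 on the Gr1Mac arrays. It rose 2.27-fold in MN1 against Gr1Mac (adjusted p = 0.0255 by limma), a call lost without either MN1 array (adjusted p = 0.103 and 0.124 by limma). It differed by 0.95 ± 0.28 in MN1VP16 against Gr1Mac (adjusted p = 0.112 by limma), but among its 4 probe sets 2 others gave a call there by limma over all probe sets, at 1.09 (adjusted p = 0.0217) and 1.31 (adjusted p = 0.0369). Hspa4, an Hsp110 relative that exchanges nucleotide on Hsp70, read 11.37 and 11.38 on the MN1 arrays, 10.97 and 10.80 on the MN1VP16 arrays, and 10.42 and 10.42 on the Gr1Mac arrays. It rose 1.94-fold in MN1 against Gr1Mac (adjusted p = 0.00642 by limma; 0.0532 without MN1 array 2). Hspa2, best known from testis, read 6.27 and 6.17 on the MN1 arrays, 5.34 and 6.08 on the MN1VP16 arrays, and 4.88 and 4.61 on the Gr1Mac arrays, and it was at least 1.31-fold higher in MN1 than in Gr1Mac (adjusted p = 0.0101 by limma; between 0.0571 and 0.0604 without either MN1 array or Gr1Mac array 2). Hspa12a, a distant relative, was lower in MN1, at 5.57 and 5.36 against 6.06 and 6.09 in Gr1Mac, both near the guide (adjusted p = 0.0321 by limma, lost whichever array was left out). Hspa12b was called higher in MN1 below the guide on all arrays, so no fold is given.

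Hspa5 (BiP), the Hsp70 of the endoplasmic reticulum, read 12.76 and 12.64 on the MN1 arrays, 12.70 and 13.49 on the MN1VP16 arrays, and 11.91 and 11.86 on the Gr1Mac arrays. Its differences from Gr1Mac were 0.82 ± 0.27 in MN1 (adjusted p = 0.0696 by limma) and 1.21 ± 0.27 in MN1VP16 (adjusted p = 0.0581 by limma), and neither passed. Of its 3 probe sets, 1 differed by -0.67 in MN1 against Gr1Mac, opposite to the others, and was not called. The window of Hspa5 held the endoplasmic reticulum stress element, CCAAT and CCACG with 9 bases of any kind between them, found in 3 of the 71 genes, or 4.23%, and in 0.138% of all; the other two were Dnajc3 and Hsp90b1. It is printed from RefSeq (GRCm38.p6, chr2:34771840-34772089, plus strand) with that element in capitals, because Hspa5 and Hsp90b1 are the chaperones of this compartment discussed here.
Hspa5: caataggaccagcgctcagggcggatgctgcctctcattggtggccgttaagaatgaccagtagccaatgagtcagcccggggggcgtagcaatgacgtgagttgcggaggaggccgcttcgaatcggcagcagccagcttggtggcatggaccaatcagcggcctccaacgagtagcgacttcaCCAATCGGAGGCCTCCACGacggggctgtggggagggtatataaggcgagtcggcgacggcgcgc

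Of the Hsp90 and Hsp110 genes, Hsp90aa1 and Hsph1 were led by MN1 and Hsp90b1 by MN1VP16. Hsp90aa1, the stress-inducible cytosolic Hsp90, read 13.14 and 13.14 on the MN1 arrays, 12.05 and 12.48 on the MN1VP16 arrays, and 10.91 and 11.30 on the Gr1Mac arrays. It rose 4.11-fold in MN1 (adjusted p = 0.00232 by limma) and 2.24-fold in MN1VP16 (adjusted p = 0.0410 by limma), both against Gr1Mac. In MN1VP16 against MN1 it differed by -0.87, which was not called. By limma over all probe sets, other bright ones gave 1.54 and 1.18 in MN1VP16 against Gr1Mac (adjusted p = 0.0131 and 0.0467). Against MN1 they gave -0.97 and -0.95 (adjusted p = 0.0367 and 0.0916 by limma). Its dim probe sets, which read at most 4.29, were not called in either. Hsph1 (Hsp105), which exchanges nucleotide on Hsp70 and is made under HSF1, read 10.69 and 10.99 on the MN1 arrays, 8.67 and 9.21 on the MN1VP16 arrays, and 7.62 and 5.90 on the Gr1Mac arrays. It rose 16.9-fold in MN1 against Gr1Mac (95% interval 6.71 to 42.6, adjusted p = 0.00395 by limma), with the Gr1Mac arrays far apart: the log2 difference was 3.22 without Gr1Mac array 2 and 4.94 without Gr1Mac array 1, and called in both. In MN1VP16 against Gr1Mac Hsph1 differed by 2.18 ± 0.55 (adjusted p = 0.0744 by limma), and in MN1VP16 against MN1 by -1.90 ± 0.55 (adjusted p = 0.114 by limma). Hsp90b1 (Grp94), the Hsp90 of the endoplasmic reticulum, read 10.91 and 10.73 on the MN1 arrays, 11.28 and 11.54 on the MN1VP16 arrays, and 10.55 and 10.46 on the Gr1Mac arrays. It rose 1.88-fold in MN1VP16 against Gr1Mac (adjusted p = 0.0401 by limma), and differed by 0.32 ± 0.17 in MN1 against Gr1Mac (adjusted p = 0.232 by limma). The difference between MN1VP16 and MN1 was 0.59 ± 0.17 (adjusted p = 0.114 by limma), so the 2 groups were not shown to differ. The other probe set of Hsp90b1 gave 1.41 in MN1VP16 against Gr1Mac (adjusted p = 0.0219 by limma over all probe sets). Against MN1 it gave 0.84 (adjusted p = 0.0778 by limma). Both MN1VP16 calls, of Hsp90aa1 and Hsp90b1, were lost whichever array was left out, with adjusted p by limma up to 0.136 and 0.150.

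The promoter of Hsph1 is shown beside that of Hspa1a so that both kinds of heat shock gene, one highest in MN1 and one highest on MN1VP16 array 2, can be seen. Both come from RefSeq (GRCm38.p6; Hsph1 chr5:149636337-149636586 and Hspa1a chr17:34972157-34972406, both minus strand), and 2-unit heat shock elements are in capitals; the 3-unit match of Hsph1 lies outside the bases printed.
Hsph1: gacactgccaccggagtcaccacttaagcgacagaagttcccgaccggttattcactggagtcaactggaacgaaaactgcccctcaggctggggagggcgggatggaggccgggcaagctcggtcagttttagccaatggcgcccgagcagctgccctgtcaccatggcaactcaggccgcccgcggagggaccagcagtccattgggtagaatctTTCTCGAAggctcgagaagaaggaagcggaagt
Hspa1a: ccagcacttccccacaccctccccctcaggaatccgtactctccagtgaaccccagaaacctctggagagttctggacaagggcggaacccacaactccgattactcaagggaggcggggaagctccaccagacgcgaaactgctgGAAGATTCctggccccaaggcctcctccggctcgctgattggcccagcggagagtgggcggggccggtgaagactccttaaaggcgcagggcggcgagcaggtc

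Hspa1a and Hspa1b, the stress-inducible Hsp70 genes, differed most between the 2 arrays of MN1VP16. Hspa1a read 4.93 and 5.58 on the MN1 arrays, 5.55 and 9.97 on the MN1VP16 arrays, and 6.54 and 8.33 on the Gr1Mac arrays. Hspa1b read 7.14 and 7.17 on the MN1 arrays, 6.61 and 11.39 on the MN1VP16 arrays, and 7.59 and 9.73 on the Gr1Mac arrays. MN1VP16 array 2 was the highest in both genes, Gr1Mac array 2 the next, and MN1VP16 array 1 lay with the MN1 arrays. The windows of these neighbouring genes on chromosome 17 were identical at 296 of 300 positions, and their transcripts are near copies, so the probe sets may not tell them apart. All 3 Hspa1b probe sets placed the same array highest. No comparison of either gene was called, and the SE of the differences were 1.39 for Hspa1a and 1.51 for Hspa1b. Without MN1VP16 array 2, the MN1VP16 minus Gr1Mac difference was -1.89 for Hspa1a and -2.04 for Hspa1b; without MN1VP16 array 1 it was 2.53 and 2.73. The 3 arrays with the highest Hspa1a and Hspa1b readings, MN1VP16 array 2 and both Gr1Mac arrays, were also the 3 with low control features, whose part in this result was not tested.

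MN1VP16 array 2 differed from array 1 in some other stress genes but not in all. Dnajb9 (ERdj4), a J-protein of the endoplasmic reticulum, read 9.28 and 11.06 in MN1VP16, while the other 4 arrays lay between 9.37 and 9.73. Hspa13, another reticulum Hsp70, read 8.75 and 9.86, and Ern1, a sensor of reticulum stress, read 9.05 and 10.57. These were picked for their wide gaps. Xbp1 read 12.00 and 12.21, Atf6 8.04 and 8.11, and Eif2ak3 was lower on array 2, at 10.61 and 9.84. Over 17 folding factors of the endoplasmic reticulum, the median gap in MN1VP16 was 0.08, with 10 higher on array 2. Dnajb14 went the other way, at 9.91 and 7.00, in both of its probe sets. Of the 86 genes, 4 were over 1 log2 unit higher on array 2 of MN1VP16, or 4.65%, against 1.80% of all genes, and 4 were over 1 unit lower there: Dnajb14, Hspb11, Dnajc6 and Dnajc17. Over all 18193 genes, 327 were higher and 577 lower by that much, so nothing is read from these counts. Dnajb1, Bag3 and Dnaja1, which also belong to the response to heat, had smaller gaps between the MN1VP16 arrays: 10.53 and 10.88, 6.90 and 7.28, and 10.96 and 11.64.

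**Figure D3:**
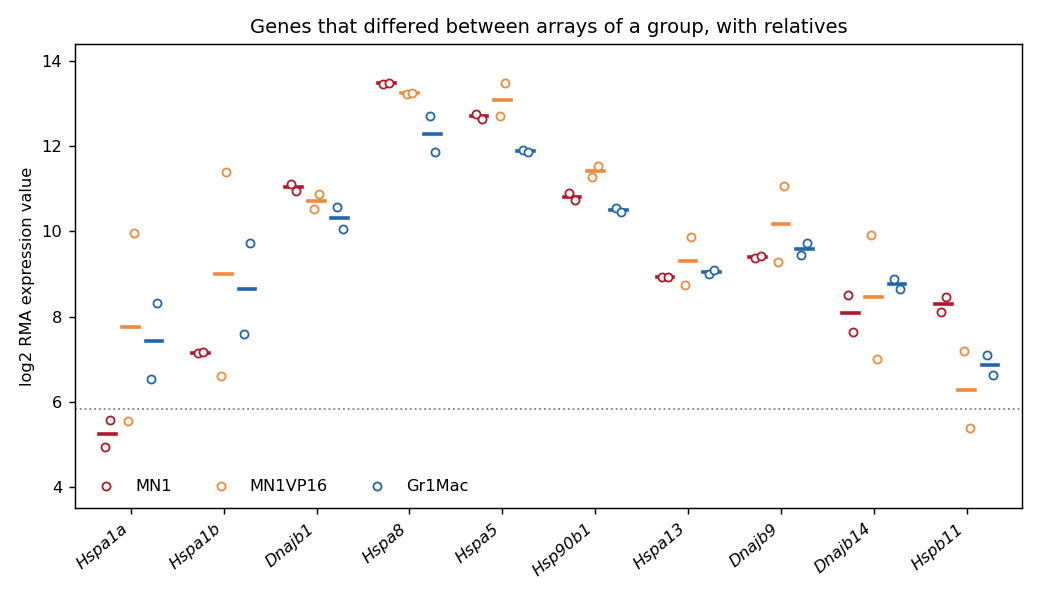
Log2 expression of Hspa1a, Hspa1b and 8 related genes on each array, with MN1 left of MN1VP16 and Gr1Mac, a point for each array, a bar at the group mean and a dotted line at the guide of 5.84. The MN1VP16 points of Hspa1a, Hspa1b and Dnajb9 lie far apart, those of Hspa8 and Hsp90b1 close together.

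Small heat shock proteins, which hold unfolded proteins without ATP, gave no call in any comparison. By limma 0 of 8 were called in MN1 against Gr1Mac, where 29.3% of all genes were. At an unadjusted p under 0.05 by limma, 2 were higher and 1 lower. In MN1VP16 limma called 0 of 8 against Gr1Mac (5.77% of all genes), with 0 at an unadjusted p under 0.05. Against MN1 it called 0 of 8 (3.85% of all genes), with 1 higher and 1 lower at an unadjusted p under 0.05. Hspb1 (Hsp25), the best known of them, read 5.22 and 5.32 on the MN1 arrays, 5.75 and 5.89 on the MN1VP16 arrays, and 5.48 and 5.75 on the Gr1Mac arrays, near the guide throughout. Hspb6 read 7.17 and 7.69 in MN1 against 6.67 and 6.67 in Gr1Mac, a difference of 0.76 ± 0.28 (adjusted p = 0.0978 by limma). Hspb11, a cilium protein despite its name, read 8.12 and 8.46 on the MN1 arrays, 7.20 and 5.38 on the MN1VP16 arrays, and 7.11 and 6.63 on the Gr1Mac arrays, with no call.

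J-proteins, which bring clients to Hsp70, were counted by family, and whether the families differ was not tested. In MN1 against Gr1Mac, 2 of 4 Dnaja, 2 of 13 Dnajb (15.4%) and 10 of 27 Dnajc genes (37.0%) were higher, against 17.3% of all genes, so the Dnajb share was no higher than that of all genes. Of the Dnajc genes 2 were lower, or 7.41% against 12.0% of all genes. Of the Dnaja genes, Dnaja3 (Tid1), a mitochondrial partner of Hspa9, read 9.42 and 9.67 on the MN1 arrays, 8.65 and 8.73 on the MN1VP16 arrays, and 7.97 and 7.43 on the Gr1Mac arrays. It rose 3.61-fold in MN1 against Gr1Mac (adjusted p = 0.00308 by limma), and differed by 0.99 ± 0.22 in MN1VP16 against Gr1Mac (adjusted p = 0.0605 by limma). Dnaja1, the farnesylated cytosolic partner of Hspa8, read 11.53 and 11.59 on the MN1 arrays, 10.96 and 11.64 on the MN1VP16 arrays, and 11.01 and 10.84 on the Gr1Mac arrays, a difference of 0.63 ± 0.25 in MN1 against Gr1Mac that was not called. Dnaja2 rose 1.62-fold (adjusted p = 0.0216 by limma), a call lost without either MN1 array or Gr1Mac array 1, with adjusted p by limma up to 0.120.

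Dnajb4, a cytosolic J-protein close to Dnajb1, read 8.54 and 9.65 on the MN1 arrays, 7.60 and 8.42 on the MN1VP16 arrays, and 6.75 and 6.24 on the Gr1Mac arrays. It rose 6.09-fold in MN1 against Gr1Mac (adjusted p = 0.00822 by limma; 0.0589 without Gr1Mac array 2). The groups did not overlap, and MN1VP16 array 2 lay close to MN1 array 1. Dnajb1 (Hsp40), the J-protein of the heat shock response, read 11.12 and 10.95 on the MN1 arrays, 10.53 and 10.88 on the MN1VP16 arrays, and 10.57 and 10.06 on the Gr1Mac arrays, and its difference of 0.72 ± 0.23 in MN1 against Gr1Mac was not called (adjusted p = 0.0658 by limma). Dnajb2, which sorts clients to the proteasome and is known from neurons, read 7.93 and 8.92 on the MN1 arrays, 6.60 and 6.17 on the MN1VP16 arrays, and 7.01 and 6.54 on the Gr1Mac arrays. Here MN1 stood apart, and MN1VP16 and Gr1Mac overlapped. Dnajb2 rose 3.13-fold in MN1 against Gr1Mac (adjusted p = 0.0198 by limma) and was 4.10-fold lower in MN1VP16 than in MN1 (adjusted p = 0.0457 by limma). Without MN1 array 2 the adjusted p was 0.0835 and 0.205 by limma; the first call was also lost without either Gr1Mac array and the second without either Gr1Mac or either MN1VP16 array.

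Dnajc6 (auxilin), which uncoats clathrin vesicles with Hspa8 and is best known from brain, had the largest difference of the Dnajc genes. It read 8.66 and 9.38 on the MN1 arrays, 6.78 and 5.67 on the MN1VP16 arrays, and 5.45 and 5.88 on the Gr1Mac arrays. MN1 stood apart, and MN1VP16 overlapped with Gr1Mac. Dnajc6 was at least 8.99-fold higher in MN1 than in Gr1Mac (adjusted p = 0.00343 by limma), a call that held without any single array. It was 6.95-fold lower in MN1VP16 than in MN1 (adjusted p = 0.0321 by limma), a call lost without any array but MN1VP16 array 1 (adjusted p up to 0.205 by limma). Dnajc21, which acts on ribosome assembly, read 9.50 and 9.69 on the MN1 arrays, 8.80 and 8.31 on the MN1VP16 arrays, and 7.41 and 7.78 on the Gr1Mac arrays, and rose 4.00-fold in MN1 against Gr1Mac (adjusted p = 0.00278 by limma). Dnajc11, part of the mitochondrial contact site complex, read 9.05 and 9.19 on the MN1 arrays, 8.27 and 8.34 on the MN1VP16 arrays, and 7.81 and 7.17 on the Gr1Mac arrays, and rose 3.10-fold (adjusted p = 0.00495 by limma). Both kept their calls without any single array. The 7 other Dnajc genes that rose in MN1 were Dnajc2, Dnajc9, Dnajc16, Dnajc18, Dnajc24, Dnajc27 and Dnajc28; among them Dnajc2 (zuotin), which binds ribosomes, rose 2.41-fold (adjusted p = 0.00865 by limma), although 1 dim probe set of it, at most 3.81, was called the other way.

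Dnajc12, a partner of aromatic amino acid hydroxylases, was the J-protein called higher in MN1VP16 than in Gr1Mac by the probe set that stood for the gene. It read 7.62 and 8.05 on the MN1 arrays, 8.42 and 8.69 on the MN1VP16 arrays, and 7.42 and 7.26 on the Gr1Mac arrays, and rose 2.32-fold against Gr1Mac (adjusted p = 0.0334 by limma, lost whichever array was left out). Its difference between MN1VP16 and MN1 was 0.72 ± 0.21 (adjusted p = 0.116 by limma). Some dimmer probe sets of Dnajc1, Dnajc2 and Dnajc3 were also called higher in MN1VP16 than in Gr1Mac, by limma over all probe sets. Dnajc14, which lies in the endoplasmic reticulum membrane, read 8.60 and 8.76 on the MN1 arrays, 8.94 and 8.80 on the MN1VP16 arrays, and 9.63 and 9.71 on the Gr1Mac arrays, so Gr1Mac was highest without overlap. It fell by 0.99 ± 0.16 log2 units in MN1 (adjusted p = 0.00630 by limma) and by 0.80 ± 0.16 in MN1VP16 (adjusted p = 0.0440 by limma, lost whichever array was left out). Dnajc5 (cysteine string protein), which serves vesicle release, read 11.32 and 11.10 in MN1 against 11.73 and 11.92 in Gr1Mac, and its call (adjusted p = 0.0468 by limma) was lost whichever array was left out.

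Bag2, a nucleotide exchange factor that also restrains the ligase Stub1, had the largest difference of the 86 genes. It read 9.66 and 10.20 on the MN1 arrays, 6.94 and 6.92 on the MN1VP16 arrays, and 4.53 and 4.72 on the Gr1Mac arrays. No groups overlapped, and the Gr1Mac arrays lay under the guide. Bag2 was at least 17.1-fold higher in MN1 than in Gr1Mac (adjusted p = 0.000589 by limma) and at least 2.13-fold higher in MN1VP16 than in Gr1Mac (adjusted p = 0.0125 by limma; 0.0614 without Gr1Mac array 2). It was 8.02-fold lower in MN1VP16 than in MN1 (adjusted p = 0.00674 by limma), the 1 call of that comparison that held without any single array. Relatives rose in MN1 against Gr1Mac: Bag4 2.07-fold, Bag1 1.88-fold and Bag5 1.84-fold, with adjusted p by limma of 0.0290, 0.0246 and 0.0269. These calls were lost without either MN1 array, and those of Bag1 and Bag5 also without Gr1Mac array 2, with adjusted p by limma up to 0.146. Bag3, the exchange factor made under HSF1 that directs clients to autophagy, read 6.94 and 6.94 on the MN1 arrays, 6.90 and 7.28 on the MN1VP16 arrays, and 7.12 and 6.62 on the Gr1Mac arrays, with no call.

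**Figure D4:**
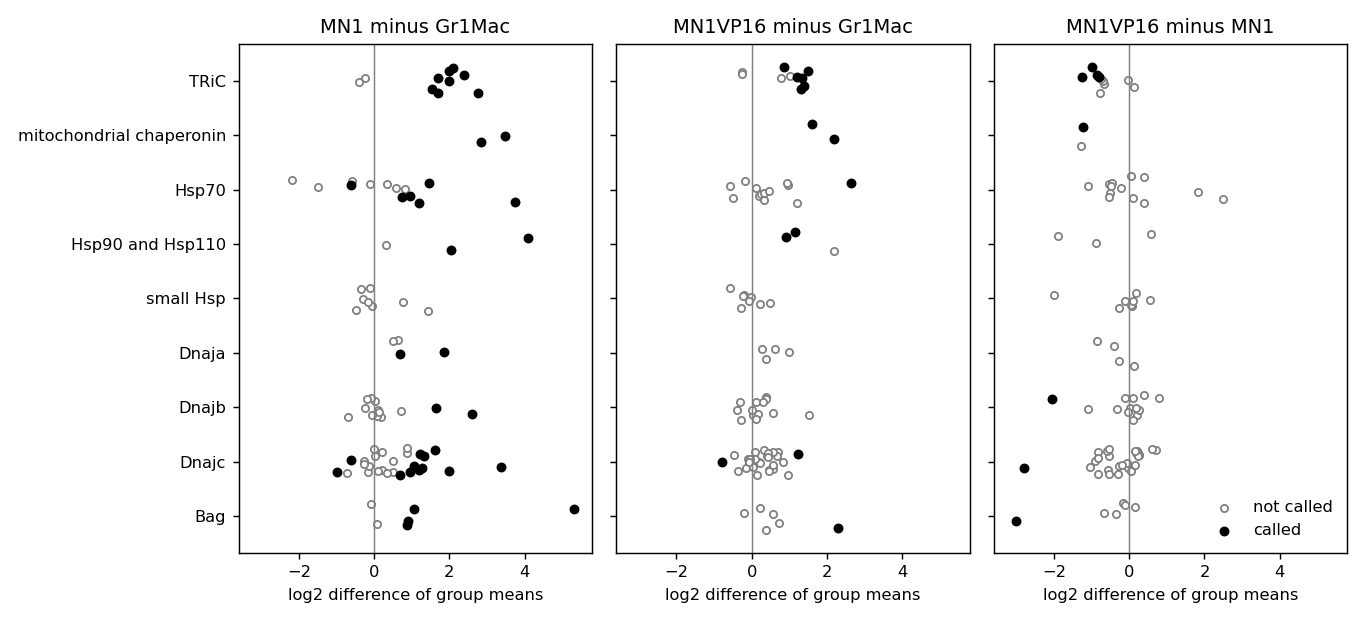
Log2 difference of group means for each of the 86 genes in the comparisons of MN1 with Gr1Mac (left), MN1VP16 with Gr1Mac (middle) and MN1VP16 with MN1 (right), by family, with filled points for genes called by limma at an adjusted p under 0.05 and open points for the rest. Filled points lie mostly right of 0 in the comparisons with Gr1Mac (35 of 38 in MN1 and 13 of 14 in MN1VP16). All 8 lie left of 0 in MN1VP16 minus MN1. Calls over all genes leaned the same ways: 3147 of 5334 and 666 of 1050 were higher, and 492 of 701 lower, in that order.

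The order MN1 above MN1VP16 above Gr1Mac, with no overlap between any arrays of neighbouring groups, was found in 28 of 86 genes, or 32.6%, against 14.1% of all genes. It was found in 8 of 10 TRiC genes, 2 of 2 mitochondrial chaperonin genes, 2 of 3 Hsp90 and Hsp110 genes, 4 of 13 Hsp70, 2 of 4 Dnaja, 1 of 13 Dnajb, 7 of 27 Dnajc and 2 of 6 Bag genes, and 0 of 8 small heat shock genes. The opposite order was found in 5 of 86 genes, and in 10.4% of all genes. The rest of the genes overlapped or had another order.

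Genes that work with these chaperones gave a similar count in MN1 against Gr1Mac. Of 78 measured genes in 5 lists, 32 were higher in MN1, or 41.0% against 17.3% of all genes. Lower were 4, or 5.13% against 12.0%. The count higher was 15 without MN1 array 1, 12 without MN1 array 2 and 10 with a block for the high or low control features, where the counts over all genes were 2015, 1519 and 914. The count lower was 0 to 2 without any 1 array and 1 with that block. In the mitochondrial list, which imports and degrades proteins, 12 of 14 were higher, or 85.7% against 17.3% of all genes. Clpb, a disaggregase, read 7.96 and 8.04 on the MN1 arrays, 6.91 and 6.93 on the MN1VP16 arrays, and 6.35 and 5.76 on the Gr1Mac arrays (adjusted p = 0.00273 by limma), and Timm50, of the import channel, rose by 1.79 ± 0.36 in MN1 against Gr1Mac (adjusted p = 0.0136 by limma).

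Of 22 partners of Hsp90 and Hsp70, 13 were higher in MN1 than in Gr1Mac, or 59.1% against 17.3% of all genes. Lower were 2, or 9.09% against 12.0%. Ruvbl1, an ATPase that assembles large complexes with Hsp90, read 10.64 and 10.62 on the MN1 arrays, 9.36 and 9.32 on the MN1VP16 arrays, and 7.80 and 7.00 on the Gr1Mac arrays, a rise of 3.23 ± 0.27 (adjusted p = 0.00141 by limma). Its partner Rpap3 read 9.30 and 9.63 on the MN1 arrays against 7.10 and 6.63 on the Gr1Mac arrays, and rose too (adjusted p = 0.00168 by limma). Fkbp5, a target of steroid receptors that binds Hsp90, was lower by 1.13 in MN1 and Sugt1, another Hsp90 partner, by 0.69, with adjusted p by limma of 0.0423 and 0.0307. Against Gr1Mac, 3 of the 22 rose in MN1VP16, or 13.6% against 3.66% of all genes: Ruvbl1 by 1.94 (adjusted p = 0.0233 by limma), Rpap3 by 1.61 and Tomm70a by 1.34. Over the 78 genes 7 rose there, or 8.97% against 3.66% of all genes. That count was lower without Gr1Mac array 2, either MN1 array or either MN1VP16 array, and higher without Gr1Mac array 1. Over all genes, too, fewer were called higher in the fits where it was lower.

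Of 11 prefoldin and TRiC cofactors, 3 rose in MN1 against Gr1Mac, or 27.3% against 17.3% of all genes, from which nothing is read: Uri1 by 2.10 ± 0.20 (adjusted p = 0.00182 by limma), Pdrg1 by 2.06 ± 0.43 and Pfdn1 by 1.14 ± 0.28. Prefoldin hands unfolded actin and tubulin to TRiC, and of its canonical subunits Pfdn1 was the one called. Of 17 folding factors of the endoplasmic reticulum, 4 rose in MN1, or 23.5% against the same 17.3%, a share near that of all genes: Calr by 1.67 ± 0.26, Pdia6 by 1.19 ± 0.33, Canx and Creld2. Txndc5, a disulphide isomerase, rose in MN1VP16, at 11.60 and 10.54 against 9.01 and 7.33 in Gr1Mac (adjusted p = 0.0483 by limma), and Calr rose by 1.99 ± 0.26 (adjusted p = 0.0204 by limma). Of 14 stress transcription factors and regulators, limma called 0 higher in MN1 than in Gr1Mac, against 17.3% of all genes. By limma 0 were higher at an unadjusted p under 0.05. Eif2ak3 fell by 1.05 and Nfe2l2 by 0.77, or 14.3% of the list against 12.0% of all genes, a share near it. Hsf1 was not analysed here because no probe set was annotated to it alone, and Hsf2, Hsf4 and Hsf5 read at or under the guide. In MN1VP16 against MN1, limma called 0 of the 78, against 3.85% of all genes. At an unadjusted p under 0.05 by limma, 5 were higher and 18 lower.

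Some markers of growth and cell type ran in the order of these results, and others did not. The mean of 13 cell cycle genes was 11.41 and 11.35 on the MN1 arrays, 10.87 and 11.46 on the MN1VP16 arrays, and 10.67 and 10.43 on the Gr1Mac arrays. Of the 13, 7 were higher and 1 lower in MN1 than in Gr1Mac, against 17.3% and 12.0% of all genes. Myc, a transcription factor of growth, read 11.17 and 10.91 on the MN1 arrays, 9.22 and 8.86 on the MN1VP16 arrays, and 7.07 and 6.23 on the Gr1Mac arrays. The mean of 10 erythroid markers was 10.70 and 11.18 on the MN1 arrays, 9.02 and 7.90 on the MN1VP16 arrays, and 6.67 and 6.52 on the Gr1Mac arrays, and that of 10 granulocyte markers 12.77 and 12.01, 13.19 and 13.05, and 13.90 and 13.99. The mean of 10 monocyte markers was 8.40 and 8.22 on the MN1 arrays, 11.54 and 10.60 on the MN1VP16 arrays, and 11.40 and 10.42 on the Gr1Mac arrays. The means of 6 mast cell and basophil markers were 9.28 and 9.94 on the MN1 arrays, 8.91 and 7.73 on the MN1VP16 arrays, and 5.63 and 5.14 on the Gr1Mac arrays, while those of the B cell, T and NK cell, and megakaryocyte lists lay between 5.22 and 7.37 on all arrays. Stem and progenitor, erythroid and mast cell markers ran in the order of the chaperonins without overlap, and granulocyte markers in the reverse order. Their part in the result was not tested, and in bulk samples fewer cells of a type and less RNA per cell cannot be told apart.

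Of the 38 calls in MN1 against Gr1Mac, 19 held without any single array, and the count higher was 19 without MN1 array 2, where that over all genes was 1519, against 3147 with all arrays. With a block for the high or low control features, 14 of the 38 held. In MN1VP16 against Gr1Mac, 1 of 14 calls held without any single array and 5 with that block, and the count higher was 1 without Gr1Mac array 2, 2 without MN1VP16 array 2, 6 without either MN1 array and 7 without MN1VP16 array 1. Over all genes those counts were 22, 231, 181 and 272, against 666 with all arrays. In MN1VP16 against MN1, 1 of 8 held without any single array and 1 with that block, and with the Xist pattern as a block 0 held. That pattern puts both MN1 arrays on one side and both MN1VP16 arrays on the other, so under it their contrast rests on the Gr1Mac pair, and limma called 0 of all 18193 genes. The count lower was 1 without MN1 array 2 or MN1VP16 array 2, 2 without MN1 array 1 and 3 without MN1VP16 array 1. Over all genes it was 23 and 130, 224 and 335 in the same order, against 492 with all arrays, so fewer genes of any kind were called in these fits. All of these calls kept their sign when any single array was left out.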

How the data were processed

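The authors deposited log2 expression values per probe set for 6 arrays, made with RMA per the submitters' processing notes; its version is not given in the sources used here. Because RMA quantile-normalises, a shift in the total RNA of a cell is lost, and differences of dim genes are compressed. The table had 45037 ordinary probe sets and 64 control features. GEO's annotation gave 1 gene symbol to 34945 probe sets, several to 932 and no symbol to 9160, and only the first kind was used. For each of 18193 genes, the probe set brightest on average over the 6 arrays stood for the gene. The array medians lay between 5.36 and 5.43.

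The test was limma 3.58.1 (R 4.3.3; lmFit, then eBayes) over all 6 arrays, with group as the only term, leaving 3 residual degrees of freedom and adding 3.03 from the prior. The p-values were adjusted over all genes within a contrast by the Benjamini-Hochberg method, and genes with an adjusted p under 0.05 were called. Folds come from the log2 differences and carry 95% intervals. Where the dimmer group averaged no more than 5.84, the fold is a lower bound against that level. With 2 arrays a group, no exact permutation test can reach the threshold, and the number of arrays limits the precision. The pipeline was tested on simulated data.

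The named genes were the best known stress genes and TRiC subunits, in each family the 3 called genes with the largest difference each way, in each list the 2 such genes, and every call of MN1VP16 minus MN1; other genes were named where a count or a single array called for it. The genes, families and lists were chosen with earlier results of these data known, and support nothing by themselves. Alternatives covered the probe set rule, dim genes, centring, the prior, the arrays in the fit, blocks and each array left out. Promoter windows of 71 genes came from RefSeq (GRCm38.p6).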

Additional observations from a re-analysis of the deposited data

How the results depend on the processing

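Counts of called genes are given for the chaperone and heat shock genes first and the other proteostasis genes second, and the cause of a change was not tested unless stated. Each array left out in turn gave 19 to 39 and 12 to 35 higher and 1 to 3 and 0 to 2 lower in MN1 minus Gr1Mac, 1 to 16 and 0 to 20 higher and 0 and 0 lower in MN1VP16 minus Gr1Mac, and 0 to 2 and 0 to 1 higher and 1 to 6 and 0 to 2 lower in MN1VP16 minus MN1. The differences that turned sign there ranged in MN1 minus Gr1Mac from -0.19 to 0.32 for Bag3, in MN1VP16 minus Gr1Mac from -1.89 to 2.53 for Hspa1a, -2.04 to 2.73 for Hspa1b and -0.04 to 0.47 for Bag3, and in MN1VP16 minus MN1 from -0.54 to 4.23 for Hspa1b, -0.60 to 0.09 for Dnaja1 and -0.04 to 0.34 for Bag3. Blocking on the control features' split gave 16 and 10 higher and 1 and 1 lower in MN1 minus Gr1Mac, 7 and 3 higher and 0 and 0 lower in MN1VP16 minus Gr1Mac, and 1 chaperone gene lower in MN1VP16 minus MN1. The split holds all MN1 arrays on one side and all Gr1Mac arrays on the other, so their contrast rests on the MN1VP16 pair. Under it Hspa1a (2.24) and Hspa1b (3.28) turned sign in MN1 minus Gr1Mac, and Hspa1b (-0.54) and Bag3 (-0.04) in MN1VP16 minus MN1. With the Xist and Y-linked pattern as a block, other genes lower in MN1 minus Gr1Mac were 2. In MN1VP16 minus Gr1Mac chaperone genes lower were 0 and other genes 20 higher and 0 lower, and in MN1VP16 minus MN1 chaperone genes lower were 0, as limma called 0 of all genes there. Under it Bag3 was -0.19 in MN1 minus Gr1Mac, Hspa1a -0.57 and Hspa1b -0.73 in MN1VP16 minus Gr1Mac, and Dnajb1 0.18, Hspa8 0.62 and Hspa1b -0.30 in MN1VP16 minus MN1.

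With only the 4 arrays of the groups compared, other genes lower in MN1 minus Gr1Mac were 2, MN1VP16 minus Gr1Mac gave 6 and 2 higher and 0 and 0 lower, and MN1VP16 minus MN1 gave 2 other genes lower. Without probe sets marked for cross-hybridisation, 7 chaperone genes were higher in MN1VP16 minus Gr1Mac, and 4 chaperone and 2 other genes were lower in MN1VP16 minus MN1. There Cct3 (-0.04) and Dnaja3 (-0.32) turned sign in MN1 minus Gr1Mac, Cct8 (-0.17) and Hspa8 (-0.24) in MN1VP16 minus Gr1Mac, and Cct3 (0.08) in MN1VP16 minus MN1. The replicate numbers do not pair the arrays, since deviations of same-numbered arrays correlated at -0.046, -0.049 and 0.08. With the replicate block, chaperone genes gave 34 higher and 2 lower in MN1 minus Gr1Mac, 10 higher and 0 lower in MN1VP16 minus Gr1Mac, and 2 lower in MN1VP16 minus MN1; other genes gave 0 lower in MN1VP16 minus Gr1Mac and 1 higher in MN1VP16 minus MN1. A threshold of at least 1 log2 unit left 0 and 2 lower in MN1 minus Gr1Mac, 0 and 0 lower in MN1VP16 minus Gr1Mac and 5 chaperone genes lower in MN1VP16 minus MN1. Dropping genes whose highest group mean is under the median left 1 chaperone gene lower in MN1 minus Gr1Mac and gave 1 other gene higher and 2 lower in MN1VP16 minus MN1. The limma trend and robust prior gave 0 and 0 lower in MN1VP16 minus Gr1Mac. The mean of all probe sets gave 0 other genes lower in MN1VP16 minus Gr1Mac and 1 lower in MN1VP16 minus MN1. Centring left 5 chaperone genes lower in MN1VP16 minus MN1, and dropping the dimmest 40% of genes gave 1 other gene higher there.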
